A study of Mus musculus with 9 samples.

Results

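The genes described here mark the glands and pits of the stomach: the gastrokines Gkn1, Gkn2 and Gkn3, the digestive zymogens and secreted factors Pgc, Pga5 and Gif, the proton pump subunits Atp4a and Atp4b, the aspartic protease Ctse and the gland mucin Muc6. They were taken by gene name from the non-control probes of the arrays, which gave 11 probes for these 10 genes out of 41174 probes and 28104 genes. In the tests 9 of the 10 genes were read, through 10 probes that were well above background in the sample on at least 2 arrays, as were 22642 genes in all. Gkn1 failed that call on every array. The tissue was the esophagus of C57BL/6J mice on the day of birth (P0), 1 array for each sample. There were 4 wild type arrays, 3 arrays of p63 knockout mice (p63-/-) and 2 arrays of p63 knockout mice that also carry Cdx2, an intestinal transcription factor, as a transgene (p63-/-;Cdx2, named in the design as Villin-Cdx2, for the promoter of an intestinal epithelial gene). The labels call the samples biological replicates and number the Cdx2 arrays out of 3, of which 2 were analysed here. They do not say that each came from another animal, so p-values measure the spread between these samples. The source label of wild type replicate 4 names a p63-/- mouse while its title and genotype say wild type. It was kept as wild type. Its median log2 sample signal over 12 squamous epithelial markers was 13.24. The other wild type arrays gave 13.06 to 13.39 and the p63 knockout arrays 9.04 to 9.78.

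The gastric mucosa is a single layer of columnar cells folded into pits that open to the surface and glands beneath them. Pit cells secrete mucus and gastrokines, mucous neck cells secrete Muc6, parietal cells acidify the lumen with a proton pump made of the catalytic subunit Atp4a and the glycosylated subunit Atp4b, and chief cells secrete pepsinogens. The esophagus of the mouse is lined instead by stratified squamous epithelium, whose development needs p63 (gene Trp63), and these gastric products are known as markers of stomach, not of squamous esophagus.

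The gastrokine genes are neighbours on chromosome 6. In mm9, the build of the array files, the Gkn1 probe lies at chr6:87295866-87295925 on the minus strand, the Gkn2 probe at chr6:87329285-87329344 on the plus strand and the Gkn3 probe at chr6:87333375-87333434 on the minus strand, so that 33359 bases separate the probes of Gkn1 and Gkn2 and 4030 bases those of Gkn2 and Gkn3. The 250 bases before the start site of each gastrokine, from RefSeq on GRCm38.p6, are shown because these neighbours differed in their signals below. Capitals mark exact matches, on either strand, to AGATAA (a core site of GATA factors), GATACC (a variant of such a site, described in proton pump promoters) and TATAAA (the TATA box).
Gkn1 promoter, chr6:87350916-87351165, minus strand: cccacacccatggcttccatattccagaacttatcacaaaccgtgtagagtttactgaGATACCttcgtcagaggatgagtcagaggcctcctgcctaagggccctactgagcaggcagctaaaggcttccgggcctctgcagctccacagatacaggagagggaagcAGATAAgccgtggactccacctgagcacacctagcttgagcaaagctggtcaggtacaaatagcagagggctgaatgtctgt
Gkn2 promoter, chr6:87373115-87373364, plus strand: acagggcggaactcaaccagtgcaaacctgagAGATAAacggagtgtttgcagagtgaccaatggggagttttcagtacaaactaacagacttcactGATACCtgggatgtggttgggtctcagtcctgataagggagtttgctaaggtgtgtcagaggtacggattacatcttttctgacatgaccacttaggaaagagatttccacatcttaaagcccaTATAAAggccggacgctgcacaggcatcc
Gkn3 promoter, chr6:87388936-87389185, minus strand: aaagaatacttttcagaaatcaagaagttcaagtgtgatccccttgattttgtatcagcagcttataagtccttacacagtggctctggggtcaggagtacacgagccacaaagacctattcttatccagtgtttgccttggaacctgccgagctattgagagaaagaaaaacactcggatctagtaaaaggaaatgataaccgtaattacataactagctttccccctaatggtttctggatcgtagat

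Gkn1 and Gkn2 each held AGATAA and GATACC, Gkn2 also held TATAAA at 29 bases before its start site, and the Gkn3 window held none of these letters. Among the 7 gastric genes with a promoter entry, AGATAA was in 3 (Gkn1, Gkn2 and Muc6), GATACC in 2 (Gkn1 and Gkn2) and TATAAA in 2 (Gkn2 and Pgc). Over all 32851 promoters of the same length the shares were 9.99%, 4.42% and 12.4%. None of the matches overlapped another, and a match describes the letters only. The other promoters matched were those of Atp4a and Gif, which held none of the 3 motifs.

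The arrays read the remaining genes through probes of 60 bases. The probes of the proton pump's catalytic subunit, of pepsinogen 5 and of gastric intrinsic factor are shown because their signals differed widely between arrays, and because Atp4a was read by 2 probes that can be set against each other. In mm9, the first Atp4a probe spans chr7:31509933-31545746 and the second chr7:31509268-31509327, both on the plus strand. The span of the first is 35814 bases, far longer than the probe, and the reason was not tested. That probe was read for Atp4a in the tests. It was well above background on 9 arrays, and the second on 2. The Pga5 probe spans chr19:10743903-10744036 on the minus strand, which at 134 bases is longer than the probe, and the Gif probe lies at chr19:11834842-11834901 on the plus strand.
Atp4a, first probe: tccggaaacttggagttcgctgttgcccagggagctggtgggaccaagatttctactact
Atp4a, second probe: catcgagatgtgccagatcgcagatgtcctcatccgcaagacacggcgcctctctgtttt
Pga5: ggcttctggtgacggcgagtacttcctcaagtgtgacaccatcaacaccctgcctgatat
Gif: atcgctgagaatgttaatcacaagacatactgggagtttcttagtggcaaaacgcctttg

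Each array held the sample RNA in Cy5 and a universal reference RNA, pooled from 11 mouse cell lines, in Cy3. Between 30021 and 33243 probes were well above background in the sample, the median sample intensity was 309.2 to 368 on the wild type arrays, 411 to 471.6 on the p63 knockout arrays and 379.9 and 400.8 on the Cdx2 arrays, and no sample spot was saturated. The 3 genotypes were hybridised on 3 separate slides that were scanned separately, and slide and genotype cannot be told apart. The log2 sample signal of Trp63 was 11.60 to 12.31 in the wild type arrays, 10.74 to 10.82 in the p63 knockout arrays and 11.26 and 11.11 in the Cdx2 arrays; its log ratio differed by -0.97 (SE 0.17) between knockout and wild type, with a limma adjusted p of 0.0747, and the files do not say whether the probe lies in the deleted part. For Cdx2 itself, none of the 9 arrays gave a reading well above background, and whether it reads the transgene is not given in the sources used here. Of 12 squamous epithelial markers, 6 fell in the p63 knockout and 8 in the knockout with Cdx2 against wild type. The smooth muscle markers had a median log2 sample signal of 13.28 to 14.34 over the 9 arrays, although the cell type label names epithelium.

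Wild type replicate 1 stood apart from the other 8 arrays for these gastric genes. Of the 9 tested genes, 8 had a log2 sample signal there at least 4-fold above the highest of the other 8 arrays; the same held for 73 of 22637 genes in all (0.322%). None of the gastric genes was 4-fold above the rest on any other array, although 37 genes were so in p63 knockout replicate 1 and 39 in Cdx2 replicate 2. The intensities below are background-subtracted and not scaled between arrays. This array is given apart, and each comparison is given with and without it. In bulk RNA, more cells of a type and more RNA per cell cannot be told apart.

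**Figure D1:**
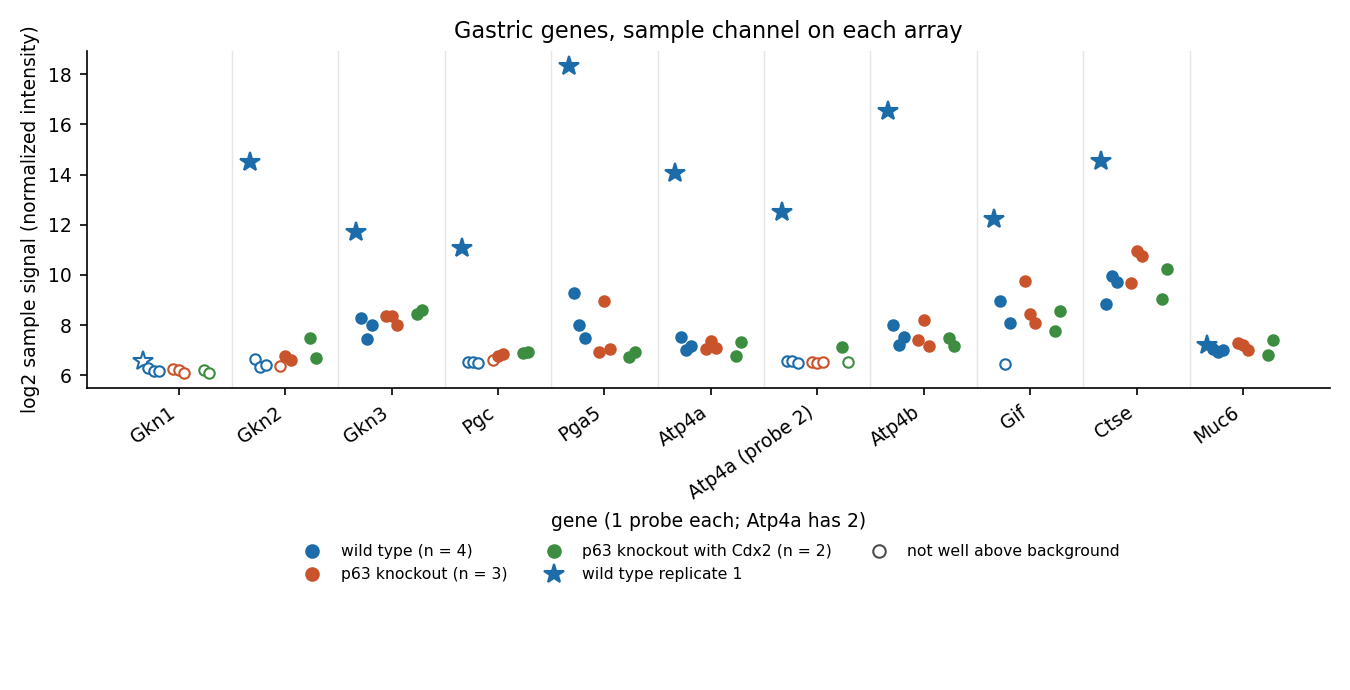
Normalized log2 sample signal (vertical axis) of each gastric probe (horizontal axis) on the 9 arrays: wild type in blue, p63 knockout in orange, p63 knockout with Cdx2 in green, wild type replicate 1 as a star, and open symbols for probes not well above background. The star of Pga5 is at 18.33 and that of Atp4b at 16.55, while the star of Gkn1, at 6.55, lies just above the 6.08 to 6.27 of the other arrays and that of Muc6 among them.

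Gkn2, a secreted gastrokine of pit cells, was bright on 1 array and near background on the rest. Its sample intensity was 25960 in wild type replicate 1 and 33.07, 10.68 and 17.89 in replicates 2 to 4, of which none was well above background. It was 18.26, 58.08 and 43.48 in the 3 p63 knockout arrays, the first of these also not well above background, and 135.5 and 45.53 in the Cdx2 arrays. Wild type replicate 1 exceeded the highest of the others 192-fold, and the arrays of the 3 genotypes otherwise overlapped except that both Cdx2 arrays lay above wild type replicates 2 to 4. Gkn1, the other pit gastrokine, gave 25.77 in wild type replicate 1 and -0.417 to 12.1 on the other 8 arrays, and none of these readings was well above background.

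Gkn3, a gastrokine of mucous neck cells, was well above background on all 9 arrays. It read 3755, 261.4, 131.1 and 228.7 in the wild type arrays, 353.7, 403.8 and 288.2 in the p63 knockout arrays and 344.8 and 427.7 in the Cdx2 arrays. Gkn3 in wild type replicate 1 was 8.78-fold above the highest other array, and all 5 knockout arrays lay above wild type replicates 2 to 4 in these intensities, though p63 knockout replicate 3 did not once the channel was scaled (8.01 log2 against 8.27 in wild type replicate 2). Muc6, the gel-forming mucin of neck and gland cells, did not share the pattern of wild type replicate 1. Its intensities were 91.07, 74.4, 57.7 and 74.52 in wild type, 131.2, 135.7 and 102.5 in the p63 knockout and 56.48 and 144.8 with Cdx2, so that wild type replicate 1 lay within the range of the others at 0.629 of their highest value. All 3 p63 knockout arrays lay above all 4 wild type arrays in these intensities, while the scaled sample signals and the log ratios of both genotypes overlapped.

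Pga5, which encodes a pepsinogen, the precursor of a stomach protease, was high on 1 array and spread over a wide range on the others. Its intensity was 385900 in wild type replicate 1 and 607, 242.4 and 132.8 in replicates 2 to 4. It was 74.03, 646.8 and 103.5 in the p63 knockout and 49.41 and 74.23 with Cdx2. Pga5 in wild type replicate 1 was 597-fold above the highest other array, which was p63 knockout replicate 2, and among the other 8 arrays both Cdx2 values lay below those of wild type replicates 2 to 4. Pgc, which encodes the pepsinogen progastricsin, read 2357 in wild type replicate 1 and 26.75, 23.66 and 25.71 in replicates 2 to 4. None of the last 3 was well above background. Pgc read 36.39, 65.29 and 70.83 in the p63 knockout, the first of these also not well above background, and 61.9 and 77 with Cdx2. Wild type replicate 1 was thus 30.6-fold above the highest other array, and all 5 knockout arrays lay above wild type replicates 2 to 4.

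Gif encodes gastric intrinsic factor, which binds cobalamin for uptake in the intestine and carries the symbol Cblif in RefSeq. It was detected on 8 of 9 arrays, and apart from wild type replicate 1 its values spread widely within each genotype. Intensities were 5384, 463.8, 24.13 and 235.3 in wild type, 1075, 422.1 and 296 in the p63 knockout and 180.8 and 402.3 with Cdx2. The 24.13 of wild type replicate 3 was not well above background, and wild type replicate 1 was 5.01-fold above p63 knockout replicate 1, the highest of the others. In p63 knockout replicate 1 the median log2 sample signal of 15 pancreatic acinar markers was 11.21, against 7.63 to 8.81 on the other arrays; the part of that tissue in the Gif value was not tested.

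Atp4a and Atp4b, the subunits of the acid-secreting pump of parietal cells, were both high in wild type replicate 1. Atp4b read 110300, 209.8, 92.14 and 139.2 in the wild type arrays, 151, 354.8 and 125.6 in the p63 knockout and 147.2 and 112.3 with Cdx2. The first Atp4a probe read 19300, 125.2, 75.67 and 87.05 in wild type, 89.97, 147.2 and 96.31 in the p63 knockout and 50.83 and 122.6 with Cdx2. Wild type replicate 1 lay 311-fold above the highest other array for Atp4b and 131-fold for Atp4a, while the remaining arrays of the 3 genotypes overlapped for both genes. The second Atp4a probe gave 6438 in wild type replicate 1, 67.5-fold above the highest other array, and was well above background on only 1 of the others, Cdx2 replicate 1 at 95.42. The 2 probes therefore placed the same array highest, and differed on Cdx2 replicate 1, which the first probe placed lowest of all at 50.83.

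Ctse encodes cathepsin E, an intracellular aspartic protease of surface mucous cells. It was well above background on every array, with 26680, 433.6, 923.5 and 952.7 in wild type, 1019, 3033 and 2494 in the p63 knockout and 620.1 and 1535 with Cdx2. Wild type replicate 1 was 8.8-fold above the highest other array, and all 3 p63 knockout arrays lay above wild type replicates 2 to 4 in these intensities, but not in the scaled signal. The Cdx2 arrays overlapped with wild type replicates 2 to 4. In unscaled intensity, all p63 knockout arrays lay above wild type replicates 2 to 4 for 4 of the 9 tested genes (Gkn3, Pgc, Ctse and Muc6), and both Cdx2 arrays for 3 (Gkn2, Gkn3 and Pgc). The same held for 46% and 42.4% of all genes. With the sample channel scaled between arrays, Pgc alone was left for the p63 knockout, against 11.6% of all genes, and the same 3 genes for Cdx2, against 20.7%.

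The reference channel, which should hold the same RNA on every array, was also high at these probes in wild type replicate 1. Its intensity for Pga5 was 42550 there and 34 to 102 on the other 8 arrays. For Atp4b it was 9566 against 55.8 to 94.6, for Atp4a 2476 against 21.5 to 37.7 and for Gkn2 912 against 16.8 to 27.1. In wild type replicate 1 the reference reading of Pga5 was 11% of the sample reading, and over the 8 gastric genes that were 4-fold above the others it ran from 3.51% for Gkn2 to 19.7% for Pgc. The same was seen outside the gastric genes. Of 18 genes at least 16-fold above the other arrays in the sample channel, 5 were gastric genes of this set and 13 were not. All 5 of the former and 10 of the latter had a reference signal at least 4-fold above the other arrays, against 19 of 22637 genes (0.0839%) in all. The cause was not tested. The reference channel also differed between the slides over all genes: tested alone, after scaling, it gave 2882 genes (12.7%) called by limma between p63 knockout and wild type arrays, 1929 (8.52%) between Cdx2 and p63 knockout and 53 (0.234%) between Cdx2 and wild type, none of them gastric genes of this set.

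**Figure D2:**
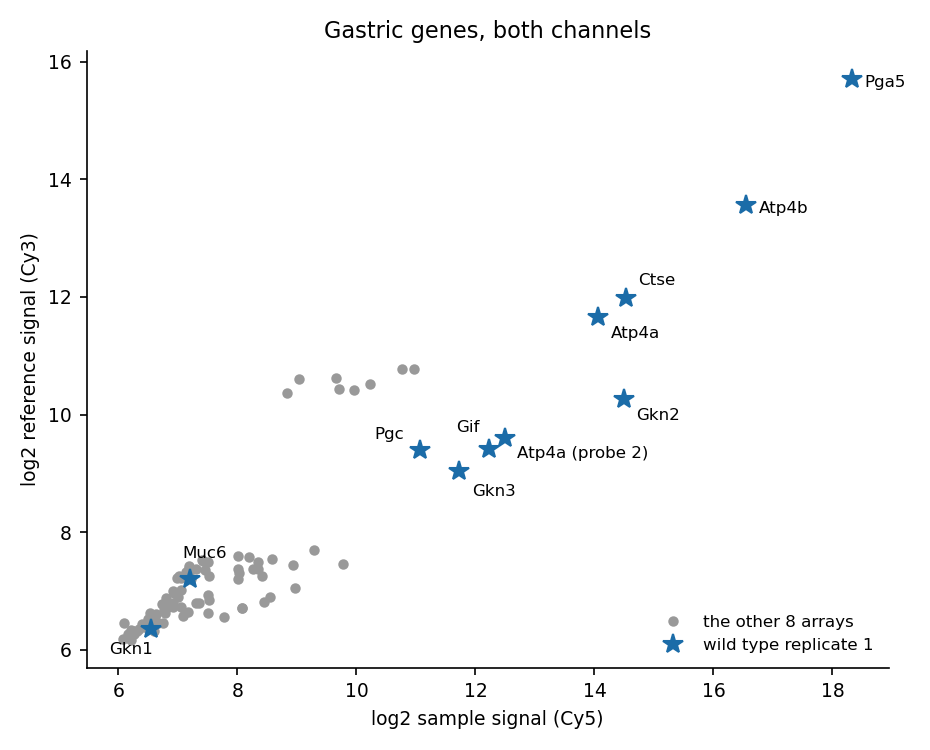
Log2 reference signal (Cy3, vertical axis) against log2 sample signal (Cy5, horizontal axis) of the 11 gastric probes, with wild type replicate 1 as labelled stars and the other 8 arrays as grey points. The stars other than Gkn1 and Muc6 lie to the right of most grey points and also high on the reference axis, with Pga5 highest on both.

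The log ratio of sample over reference, on which the tests were run, therefore showed smaller gaps than the sample channel. For Pga5, wild type replicate 1 was 9.04 above the highest other array on the log2 sample scale and 1.03 above it in log2 ratio. Its log2 ratios were 2.62, 1.59, 0.41 and 0.56 in wild type, 0.19, 1.5 and 0.05 in the p63 knockout and -0.05 and 0.13 with Cdx2. For Gkn2 the corresponding gaps were 6.99 and 3.34, with log2 ratios of 4.22, 0.03, -0.01 and -0.04 in wild type, -0.01, 0.28 and 0.06 in the p63 knockout and 0.88 and 0.21 with Cdx2. Gif, at 2.81 in wild type replicate 1, was only 0.50 above the next array. In the authors' deposited table its log2 ratio there was 2.85. That lay below the 4.06 of Cdx2 replicate 1 and the 3.00 of wild type replicate 2. Over all genes, 28 of 22637 (0.124%) had a log2 ratio in wild type replicate 1 at least 4-fold above the other 8 arrays; Gkn2, Atp4b and Ctse were among them by gaps of 3.34, 2.25 and 2.35.

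**Figure D3:**
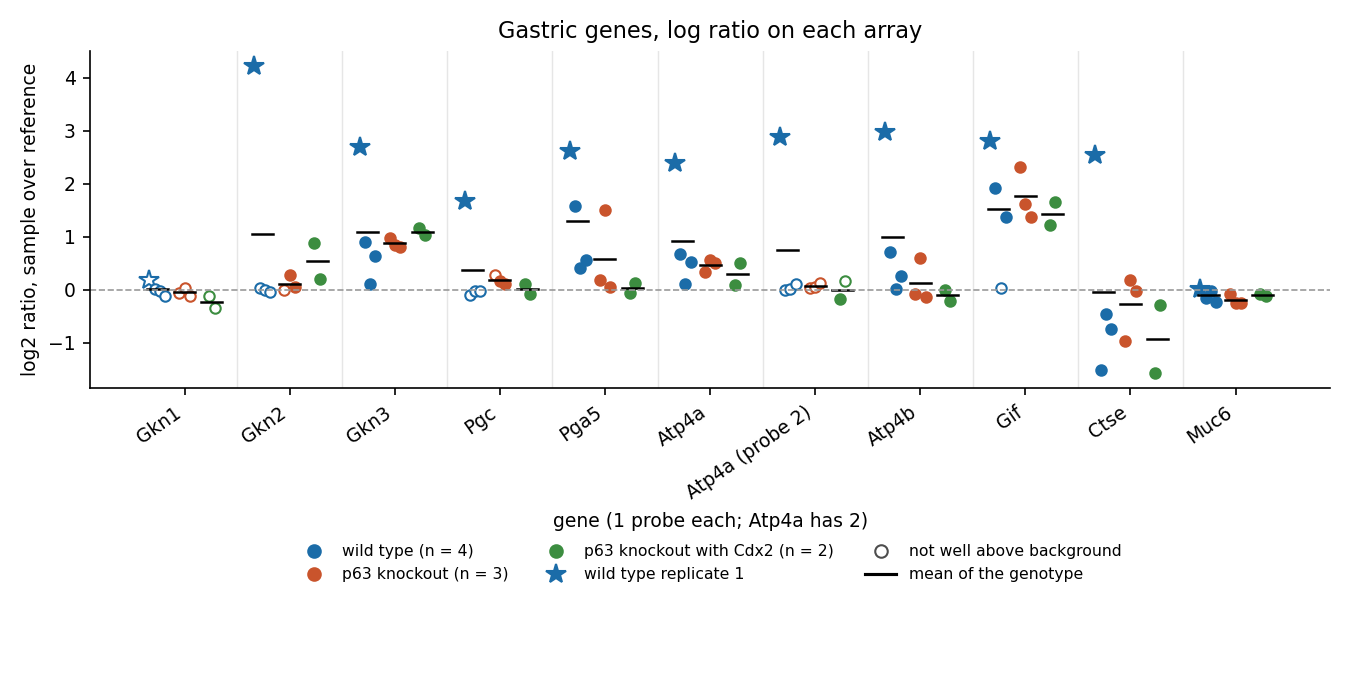
Log2 ratio of sample over reference (vertical axis) for each gastric probe (horizontal axis) on the 9 arrays, with colours and symbols by genotype, wild type replicate 1 as a star, open symbols for probes not well above background and bars at genotype means. The wild type bar of Gkn2 lies at 1.05 although 3 of its 4 arrays lie between -0.04 and 0.03.

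The p63 knockout arrays were first set against wild type, the comparison that asks what the loss of p63 does to the esophagus. None of the 9 gastric genes was called by limma at an adjusted p below 0.05 over all genes, where 74 of 22642 genes (0.327%) were called. Of these, 8 were lower and 1, Gif, was higher in the knockout, with a median difference of -0.22 log2 against 0.02 over all genes. Without wild type replicate 1 the balance turned, with 6 higher and 3 lower and a median of 0.12, and again no gastric gene was called, where 54 genes (0.238%) were. Gkn2 shows the turn: log2 ratios averaged 0.11 ± 0.15 (SD, n = 3) over the knockout arrays against 1.05 ± 2.12 (SD, n = 4) over wild type, or -0.01 ± 0.04 (SD, n = 3) without replicate 1. The difference was -0.94 (SE 0.98, limma adjusted p 0.84) with all arrays and 0.12 (SE 0.17, limma adjusted p 0.924) without it.

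Atp4b gave the lowest adjusted p of the gastric genes in this comparison, with a difference of -0.86 (SE 0.64, limma adjusted p 0.793), which became -0.20 (SE 0.25) without wild type replicate 1. For Pga5 the difference was -0.72 (95% interval -2.01 to 0.57) and -0.27 without that array. Pgc differed by -0.21 with all arrays and by 0.22 (SE 0.09, unadjusted limma p 0.0361, adjusted p 0.679) without wild type replicate 1. In that fit 6.97% of all genes had an unadjusted limma p below 0.05. Pgc was not well above background in any of the other 3 wild type arrays, nor in p63 knockout replicate 1. In the sample channel the knockout mean lay 1.17-fold above these wild type arrays, from mean log2 signals of 6.74 and 6.52. The 95% interval of that difference was 0.01 to 0.43 log2 (limma adjusted p 0.335). Ctse and Gif differed by 0.64 and 0.66 without wild type replicate 1, with 95% intervals of -0.42 to 1.69 and -0.45 to 1.78 that cover 0. Muc6 had the narrowest interval, -0.27 to 0.11 around -0.08.

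The Cdx2 arrays were next set against p63 knockout arrays, which asks what the intestinal factor adds in the same background. No gastric gene was called, as was no gene at all (0 of 22642, 0%), while 2587 genes (11.4%) had an unadjusted limma p below 0.05, none of them gastric. The sample channel alone called 51 genes, none gastric. With Cdx2, 6 gastric genes were lower and 3 higher, with a median of -0.17 log2 against -0.03 over all genes, and the count was the same without wild type replicate 1, which enters only the shared spread. Gkn2 differed by 0.43 (95% interval -2.26 to 3.12, narrowing to -0.01 to 0.88 without that array), and Ctse by -0.66 (SE 1.06). The mean log2 ratios of Ctse were -0.93 ± 0.90 (SD, n = 2) with Cdx2 and -0.26 ± 0.61 (SD, n = 3) in the knockout.

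Against wild type, the Cdx2 arrays also gave no called gastric gene, where 319 of 22642 genes (1.41%) were called. Both this and the first comparison use the same wild type arrays. Of the 9 genes, 7 were lower and 2 higher, with a median of -0.50 log2 against 0.00 over all genes; without wild type replicate 1, 4 were lower and 5 higher, with a median of 0.04. Pga5, the pepsinogen, gave the lowest adjusted p, at -1.26 (SE 0.64, limma adjusted p 0.344), and -0.81 (SE 0.50, limma adjusted p 0.442) without that array. Without it, Gkn2 was 0.56 higher with Cdx2 (95% interval 0.11 to 1.00, unadjusted limma p 0.021, adjusted p 0.2) and Gkn3 0.55 higher (95% interval 0.05 to 1.04, unadjusted limma p 0.035, adjusted p 0.244), and neither passed over all genes, of which 17.7% had an unadjusted p below 0.05 and 0.667% were called in that fit. In the sample channel the Cdx2 mean of Gkn2 lay 1.56-fold above wild type replicates 2 to 4, where it was not well above background. The 95% interval of that difference was 0.06 to 1.22 log2 (limma adjusted p 0.215).

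**Figure D4:**
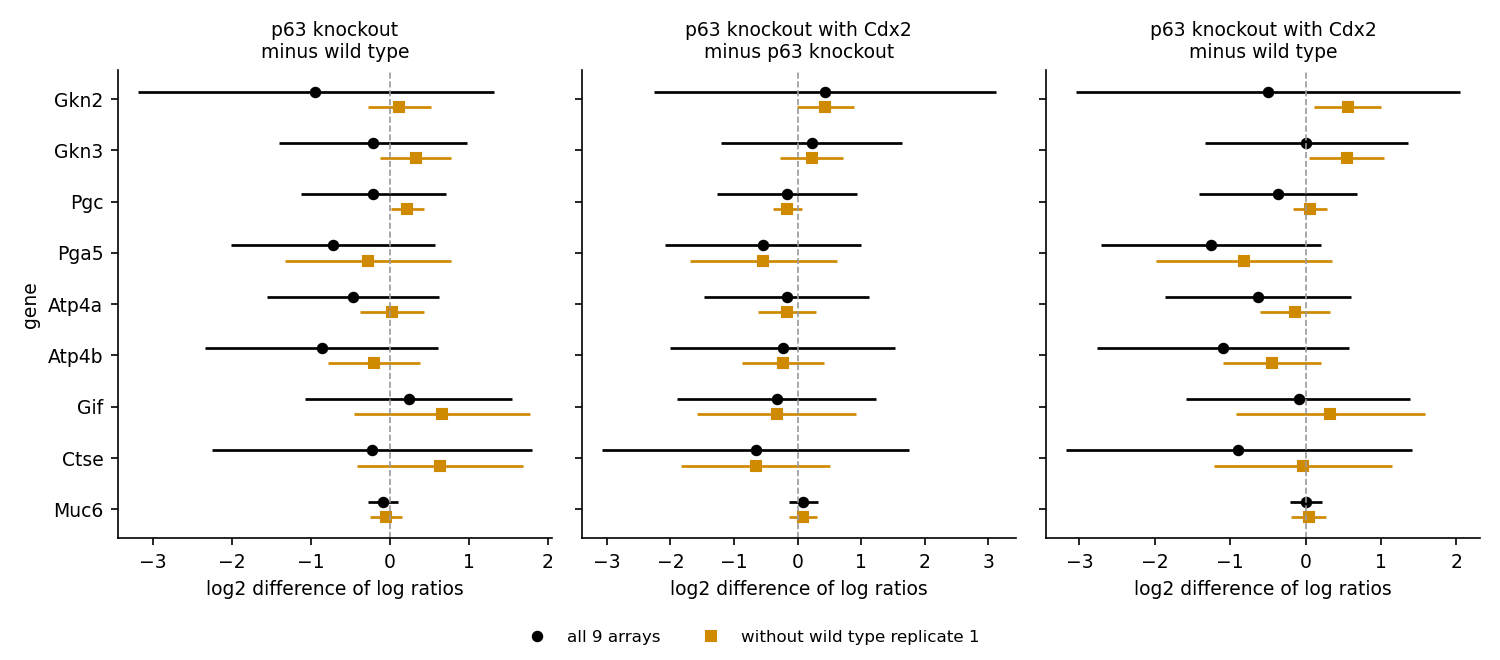
Log2 difference in log ratio (horizontal axis, with 95% confidence intervals) for each of the 9 tested gastric genes (vertical axis) in the 3 comparisons, with all 9 arrays in black and without wild type replicate 1 in ochre. With all arrays every interval covers 0; without that array the intervals of Pgc (p63 knockout minus wild type), Gkn2 and Gkn3 (with Cdx2 minus wild type) do not, and none of these passed after adjustment.

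The shared pattern of the gastric genes lay in wild type replicate 1. Over the 9 arrays the 36 pairs of tested genes had a median Pearson correlation of log2 ratios of 0.71, and over the 8 arrays without that one the median was -0.04, with a range of -0.78 to 0.96. The pair at 0.96 was Pga5 and Atp4b, whose log ratios were both high in wild type replicate 2 and p63 knockout replicate 2. Gkn3 and Gif followed with 0.78, and the 2 subunits of the proton pump gave 0.52. These values describe few arrays, whose RNA, slide and labelling are shared by all genes.

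The genes whose log ratio followed the mean of the gastric genes most closely over the 9 arrays, among 1595 variable genes, were Rep15 (r = 0.993), Anxa10 (0.987), an unnamed probe NAP027049-1 (0.985), Lgals4 (0.985), Ces2b (0.985), Lgals6 (0.982), an unnamed probe A_52_P1085448 (0.98), Tcf23, Ihh, Cyp2c65 and Cyp2c66 (0.979 each) and Myo1a (0.974). Anxa10 is an annexin of the gastric mucosa, Lgals4 and Lgals6 are galectins of the digestive tract, Ihh is a hedgehog ligand of gut epithelium and Myo1a is a brush border myosin. All 12 were also led by wild type replicate 1: without it their correlations ran from -0.257 for Myo1a to 0.777 for Rep15. Cyp2c65, a cytochrome P450, had a log2 ratio of 5.80 there and -0.42 to -0.02 on the other 8 arrays.

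Other genes of the gastric lineages were read from companion lists, without the 10 genes above. In wild type replicate 1, 4 of 11 other surface and pit genes were at least 4-fold above the other arrays in the sample channel, as were 2 of 6 chief cell genes, 2 of 16 parietal cell genes and 2 of 19 gastric transcription factors, beside the 0.322% of all genes. None of 5 mucous neck and gland base genes and none of 11 endocrine genes reached this. These genes, named after their values were seen, were Anxa10, Vsig1, Sult1c2 and the trefoil peptide Tff1 among surface genes and the milk-clotting protease Cym and Pdia2 among chief cell genes. Parietal genes were Esrrg, a nuclear receptor of parietal cells, and Kcne2, a potassium channel subunit that serves acid secretion. The transcription factors were Barx1, which patterns the stomach mesenchyme, and the antral factor Nkx6-3. Cym, an aspartic protease like the pepsinogens, read 16.74 on the log2 sample scale in wild type replicate 1 and 6.45 to 7.91 elsewhere. Nkx6-3 read 10.31 there and 6.38 to 6.57 elsewhere, and was well above background on 2 arrays in all.

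Tff1, unlike most of the 10 genes, was also uneven among the other arrays. Its log2 sample signal was 16.49 in wild type replicate 1 and 8.20 to 8.63 in the other wild type arrays, and 12.43, 10.42 and 13.47 in the p63 knockout, with 6.57 and 11.09 with Cdx2. Tff2, the trefoil peptide of neck cells, read 13.72, 8.33, 7.83 and 8.91 in wild type, 13.94, 12.17 and 12.53 in the p63 knockout and 10.19 and 12.48 with Cdx2. The 3 p63 knockout arrays thus lay above wild type replicates 2 to 4 for both, as they did for 11.6% of all genes. Neither was called by limma in log ratio between p63 knockout and wild type, with or without wild type replicate 1. Tff1 in Cdx2 replicate 1 lay below every wild type array. Tff3, the intestinal trefoil peptide, overlapped, with 8.76, 8.12, 11.44 and 9.40 in wild type, 10.41, 10.41 and 10.26 in the p63 knockout and 10.94 and 9.30 with Cdx2. Spink4, a secreted inhibitor on the neck and gland base list, was higher than in wild type in both knockout groups. Without wild type replicate 1 the difference from wild type was 2.39 in the p63 knockout (SE 0.22, limma adjusted p 0.0121). In the knockout with Cdx2 it was 2.08 against the same wild type arrays (SE 0.25, limma adjusted p 0.0317). With all 9 arrays the differences of Spink4 from wild type were 2.02 (limma adjusted p 0.126) and 1.71 (limma adjusted p 0.105).

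In the tests of genotype, few companion genes passed. Psca, a surface antigen of gastric pit and also of squamous cells, was the 1 gene of 12 on the surface and pit list that fell in the p63 knockout, by 1.66 (SE 0.24, limma adjusted p 0.0363). It fell by 2.48 with Cdx2 against wild type (SE 0.27, limma adjusted p 0.00977). Without wild type replicate 1 the first difference was -1.67 with a limma adjusted p of 0.107, and the second was -2.48 with a limma adjusted p of 0.0317. Klf5, a Krüppel-like factor of gut and squamous epithelium, was the 1 of 19 transcription factors that fell in the knockout, by 0.59 (SE 0.08, limma adjusted p 0.0306, and 0.0778 without wild type replicate 1). With Cdx2 against wild type, 3 of 19 fell: Osr1 by 0.97, Klf5 by 0.91 and Foxq1 by 0.56, of which Foxq1 was not called without wild type replicate 1 (adjusted p 0.0878).

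Of the 8 genes of cobalamin uptake, Cubn, the intestinal and renal receptor of the complex that Gif forms, rose with Cdx2 against wild type by 0.71 (SE 0.13, limma adjusted p 0.0475), and was not called without wild type replicate 1 (adjusted p 0.0887). Its list partner Gif differed by -0.09 in that comparison. No gene of the chief cell list (9 tested), the parietal list (18), the aspartic proteases (10), the partners of the proton pump (11) or the endocrine list (11) was called with all arrays. The gene of lowest p in the knockout comparison was Lipf, a gastric lipase, for chief cells and Ldhb, a lactate dehydrogenase subunit, for parietal cells, Napsa for the proteases, Atp1b3 for the pump partners and Pcsk1, a prohormone convertase, for the endocrine list. Pcsk1 was 1.40 higher in the knockout (SE 0.24, limma adjusted p 0.0729). Without wild type replicate 1, Chga, the endocrine granule protein, fell with Cdx2 against wild type by 0.95 (SE 0.11, limma adjusted p 0.0255).

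**Figure D5:**
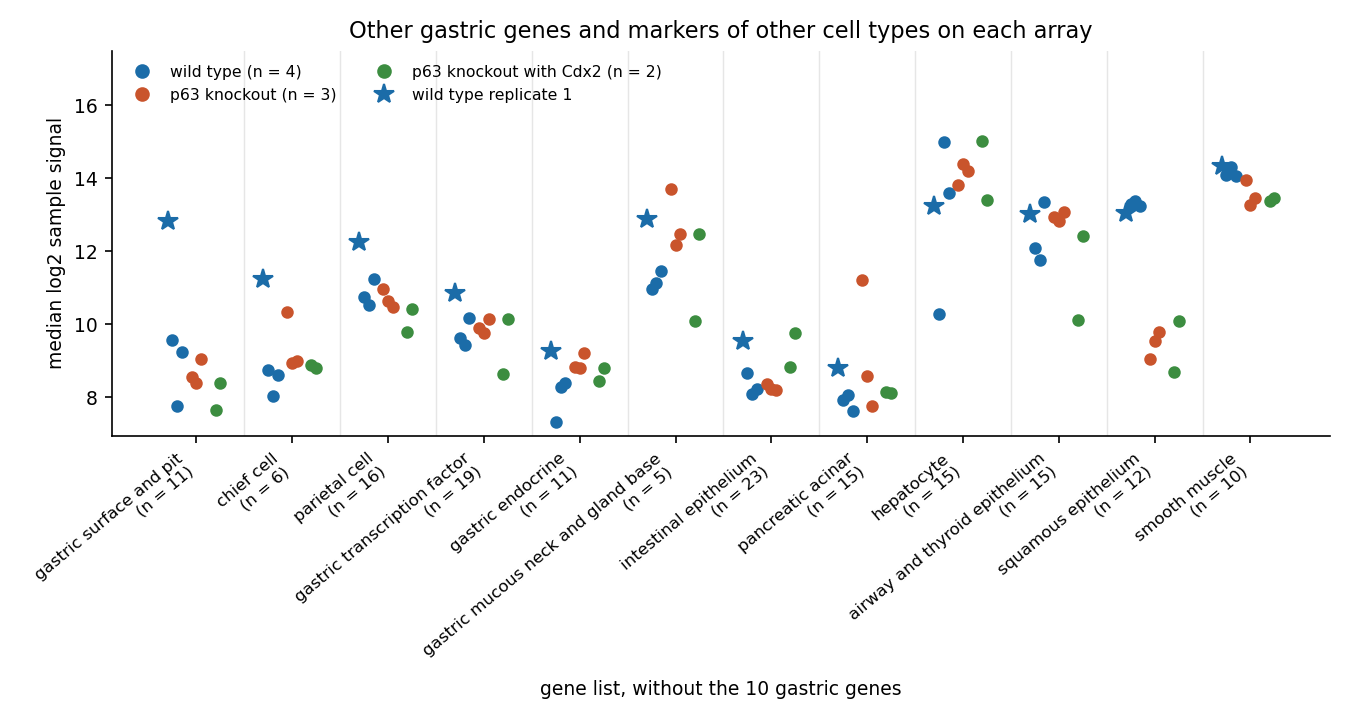
Median log2 sample signal (vertical axis) of each companion list without the 10 gastric genes (horizontal axis, n is the number of genes) on the 9 arrays, coloured by genotype with wild type replicate 1 as a star. That array has the highest median for surface and pit (12.82), chief (11.25) and parietal (12.25) genes. It is also highest for gastric transcription factors (10.87, next 10.18), endocrine genes (9.28, next 9.21) and smooth muscle markers (14.34, next 14.3). For squamous markers (13.06) it lies below the other wild type arrays (13.24 to 13.39) and above the knockout arrays.

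Markers of neighbouring tissues were read beside the gastric values. In wild type replicate 1 the median of the surface and pit list was 12.82 against 7.65 to 9.58 on the other arrays, and that of 23 intestinal markers was 9.53 against 8.08 to 9.77. Of the 23 intestinal markers, 4 were 4-fold above the other arrays there, namely Krt20, Lgals4, Phgr1 and Vil1. The 15 hepatocyte markers had a median of 13.24 there and 10.27 to 15.02 elsewhere, with none 4-fold above the rest. The 15 pancreatic markers had a median of 8.81 and the 15 airway and thyroid markers one of 13.02, with 1 gene 4-fold above in each, Pla2g1b and Bpifb1. The squamous markers of wild type replicate 1, at a median of 13.06, were a little below the 13.24 to 13.39 of the other wild type arrays and above the 8.68 to 10.08 of the knockout arrays, so that its gastric signal came beside a squamous one. The part of other tissue in the gastric values was not tested.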

How the data were processed

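Esophageal RNA of 9 samples was hybridised to 2-colour Agilent arrays, 1 array per sample, with the sample always in Cy5 and the universal reference in Cy3, so dye effects of a probe remain in every ratio. Per the file headers, Agilent Feature Extraction 10.7.3.1 wrote each spot's mean and local background intensity, with probe coordinates on mm9; version 9.1 is given in the submitters' processing notes. The headers' software also wrote a log10 ratio of Cy5 over Cy3 from its processed intensities, per the file headers. The authors deposited a table of log2 ratios for 41267 probes, which correlated with those scanner ratios at 0.992 or more on each array; its column medians were -0.213 to -0.0281, and its centring is not given in the sources used here.

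From the intensities, normexp correction (offset 50), loess within each array and, for single channels, Aquantile scaling were computed in limma 3.58.1 (R 4.3.3). Control spots had weight 0 and 119 to 171 flagged spots per array were left out. Probes well above background in the sample on at least 2 arrays were kept, with the brightest on average read for each gene. Of 41174 probes, 26918 were named by accession through RefSeq (GRCm38.p6), 5899 by symbol or synonym, and 8357 kept the file's name. Log2 ratios of all 9 arrays were fitted in 1 model of 3 genotypes (lmFit, eBayes), with Benjamini-Hochberg adjustment over all genes and calls below 0.05. The code was tested on simulated data. The number of arrays limits the precision.

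The 10 gastric genes and the companion lists were chosen with earlier results of these data known. All 10 genes are reported. From each list, genes that passed, up to 3 in each direction by size, or else the gene of lowest p were named, and the 12 genes most correlated with the mean standardised log2 ratio of the 9 tested genes, among those with an SD of at least 0.5. Other named genes were chosen after their values were seen. Where a gene was not well above background in a group, the fold compares group means of log2 sample signal. An array of the dim group counts at its own signal or, if that is lower, at the array's weakest signal well above background. For Pgc and Gkn2 each such array counted at its own signal, so these folds are observed differences and not lower bounds. The mean of the other group includes every array of that group. Alternatives covered background correction, channel, scaling, the deposited table, the filter, the probe rule, the variance prior, array weights, the genotypes fitted, a replicate block and each array left out.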

Additional observations from a re-analysis of the deposited data

Results flagged for a closer look

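Among the 4 wild type arrays, wild type replicate 1 lay far from the other 3 for 5 gastric genes by the gap to the nearest array over the whole range. In log2 ratio this held for 3 of 11 probes: Gkn2 at 4.22, Pgc at 1.67 and the second Atp4a probe at 2.88. In log2 sample signal it held for 6 of 11 probes: Pga5 at 18.33, Atp4b at 16.55, Gkn2 at 14.49, the first Atp4a probe at 14.06, the second Atp4a probe at 12.49 and Pgc at 11.07. For groups not chosen by their values, chance flags about 1 in 20. That rate is no yardstick here, since these genes were chosen with earlier results of these data known. The flags describe the array and do not test it. The probes also share their arrays, so these readings are not independent of each other.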

How the results depend on the processing

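No gastric gene was called in any of the 3 comparisons under any of the 21 alternatives: 0 of 567 values, with a lowest limma adjusted p of 0.112 (Pgc, Cdx2 minus wild type, sample channel without wild type replicate 1). Of those values, 39 moved by more than 1 standard error. Direction in the wild type comparisons turned for several genes when wild type replicate 1 was left out. Gkn2 ran from -1.89 to 0.15 in the knockout comparison and from -1.37 to 1.16 with Cdx2. Both upper ends came from alternatives that kept that array, so its direction also depended on the other processing. Without that array Gkn2 differed by 0.12 and 0.56 in log ratio and by 0.13 and 0.64 in the sample channel. For Pgc in the knockout comparison the upper end was 0.38, against 0.22 without that array. Pga5 was lower in both wild type comparisons in all 21 alternatives. Over all genes the number called was 9 to 393 in the knockout comparison (74 as reported), 0 to 51 between Cdx2 and the knockout (0 as reported) and 8 to 548 between Cdx2 and wild type (319 as reported). The reference channel, which is not among these alternatives, gave more in the first and second (2882 and 1929). The highest counts among the alternatives came from the sample channel alone and the lowest 9 and 8 from the replicate block. The deviations of same-numbered arrays from their genotype means correlated at -0.134 to 0.188. With so few arrays in each genotype these values cannot tell whether same-numbered arrays are paired. With the replicate number as replicate block, 0 gastric genes were called in each comparison. A block for slide was not run, since each slide holds 1 genotype. Dim probes such as Gkn1 and, outside wild type replicate 1, Gkn2 and Pgc lie close to background, which limits what can be read from their ratios.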
